A study of Mus musculus with 16 samples.

Results

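The genes described here encode the proteins of the cytosolic ribosome. They were chosen by symbol: Rpl or Rps, a number and at most 1 of the letters a, x, y or l, together with the 3 stalk genes Rplp0, Rplp1 and Rplp2, and Rpsa. Pseudogenes marked by -ps do not meet this rule, and neither do a few ribosomal proteins with longer symbols, such as Rps3a1 and Rpl36al. The rule found 83 of the 32989 genes in the count table, 51 of the large and 32 of the small subunit. It used no measured value. Of these, 81 had a mean of at least 5 counts per library and were tested (49 large, 32 small), among 19049 genes tested in all. Rpl3l and Rpl10l were not. 3 of the tested genes, Rpl6l, Rpl32l and Rps4l, fit the symbol rule although the annotation (GENCODE on GRCm38) calls them processed pseudogenes.

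RNA came from organoids grown for 2 weeks from epidermal cells of C57BL/6J mice, a culture in which hair follicle stem cells (HFSCs) and their progenitor offspring coexist. The organoids were left untreated (labelled WT, the control) or were given N1-acetylspermidine (N1-AcSpd), a polyamine carrying an acetyl group, for 72 h. Sorting on integrin α6 and CD34 then separated progenitors (α6+/CD34−) from HFSCs (α6+/CD34+). Each of 4 mice gave 1 library to each of the 4 groups, untreated CD34−, N1-AcSpd CD34−, untreated CD34+ and N1-AcSpd CD34+, so that the 16 libraries form 4 groups of 4. The 3′ end of each mRNA was sequenced with unique molecular identifiers (UMIs), which count molecules instead of reads. The cells were cultured, so the values describe organoids and not skin.

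A ribosome joins a large subunit, which forms peptide bonds, and a small subunit, which reads the mRNA. Most of their proteins are needed in 1 copy per ribosome, and cells make them at matched rates. Most of these mRNAs begin with a C followed by a run of pyrimidines, the terminal oligopyrimidine (TOP) tract, through which growth signals acting by mTOR and LARP1 set how much of the mRNA is translated. RNA amounts do not measure how much of an mRNA is translated. Stem cells of the follicle are known for a low rate of protein synthesis, and the study compared HFSCs with progenitors and asked what N1-AcSpd does to both.

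The start sites below show which of the genes the results turn on carry such a tract at their annotated start. Sequences are from RefSeq on GRCm38.p6, which held 61 of the 83 genes (38 large, 23 small). Each run gives 10 bases before the annotated start and the 20 that follow, 5′ to 3′ on the gene's strand, and capitals mark a C at the start together with an unbroken run of at least 4 further pyrimidines. Rps27, the gene called higher in HFSCs, lies at chr3:90213629-90213658 (minus strand) in this window, Rps6 at chr4:86857348-86857377 (minus), Rpl38 at chr11:114668570-114668599 (plus) and Rplp2 at chr7:141447641-141447670 (plus). Windows of 4 genes that were called lower have no such run at the annotated base: Rpl5 at chr5:107900518-107900547 (plus), Rplp0 at chr5:115559457-115559486 (plus), Rps12 at chr10:23787190-23787219 (minus) and Rpsa at chr9:120127756-120127785 (plus).
Rps27: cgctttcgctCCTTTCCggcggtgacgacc
Rps6: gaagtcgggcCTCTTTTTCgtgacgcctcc
Rpl38: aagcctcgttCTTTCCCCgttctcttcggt
Rplp2: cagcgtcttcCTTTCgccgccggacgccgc
Rpl5: cgtcgcttgcgtgctggtggtgctacatac
Rplp0: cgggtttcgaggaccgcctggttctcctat
Rps12: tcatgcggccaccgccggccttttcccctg
Rpsa: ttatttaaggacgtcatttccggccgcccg

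A tract stood at the annotated start of 13 of the 61 genes (21.3%), against 2.49% of all 27025 symbols with a sequence. Annotated starts can lie some bases from the start used in these cells, so a missing run says only that these letters are not at that base. The letters CCGGAAG, searched on both strands from 250 bases before to 50 after the start, were found in 24 of the 61 (39.3%), against 9.12% of all symbols. In untreated cells the 13 genes with a tract had a median log2 fold change of -0.09 between HFSCs and progenitors, and 7 of them were called lower. The 46 tested genes without one had -0.12, and 25 were called lower, beside 16.1% of all genes. In N1-AcSpd cells 5 of the 13 and 19 of the 46 were called lower, beside 16.8% of all genes. The windows above show only a few named genes, so nothing is read from their mix of tracts and calls.

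Library totals ran from 15480075 to 29074855 UMIs, and CD34− libraries were in most cases the deeper ones. The sort marker Cd34 lay between 2.88 and 3.65 CPM (counts scaled to a library of 1000000) in the 8 CD34− libraries and between 43.4 and 64.1 CPM in the 8 CD34+ libraries. Itga6, the other sort marker, ran from 52.3 to 68.9 CPM in CD34− and from 45.7 to 53.0 CPM in CD34+ libraries. The follicle stem cell markers Krt15, Lhx2, Sox9 and Lgr5 summed to between 53.8 and 81.6 CPM in CD34− and to between 303 and 545 CPM in CD34+ libraries. Most of the CD34+ sum was Krt15, at 239 to 447 CPM against 27.3 to 42.7 CPM in CD34− libraries. Lhx2 and Sox9 were also higher in CD34+ libraries without overlap. Lgr5 overlapped, at 0 to 5.50 CPM in CD34− and 3.90 to 5.91 CPM in CD34+ libraries. Keratin genes Krt5 and Krt14 summed to at least 5561 CPM in every library. Summed markers of differentiated epidermis (Krt1, Krt10, Lor, Ivl) were higher in CD34− libraries, from 45.3 to 85.6 CPM against 19.2 to 29.2 CPM, with all 4 above 0 in every library. Melanocyte markers summed to at most 12.6 CPM, fibroblast markers to at most 1.37 and immune markers to at most 2.09. Transcripts of the mitochondrial genome took 0.938% to 1.16% of CD34− and 1.23% to 1.45% of CD34+ libraries. The part of these differences in the results below was not tested. In bulk RNA, fewer cells of one kind and less RNA per cell cannot be told apart.

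Ribosomal protein genes took close to the same share of every library. In untreated progenitors of mice 1 to 4 they held 9.35%, 9.16%, 9.01% and 8.75% of all UMIs, and in untreated HFSCs 9.39%, 9.10%, 9.08% and 8.99%. N1-AcSpd progenitors held 8.79%, 8.72%, 8.60% and 8.70%, and N1-AcSpd HFSCs 8.78%, 8.97%, 8.66% and 9.19%. As groups, untreated and N1-AcSpd cells overlapped within each cell type, and the cell types overlapped in both conditions. Within mice the share was lower with N1-AcSpd in 4 of 4 mice in progenitors and in 3 of 4 in HFSCs, with mouse 4 the exception. The widest 95% Wilson interval of a single library spanned 0.0281 percentage points, which covers counting error only.

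The group means were 9.07% ± 0.253 (SD, n = 4) in untreated progenitors, 8.70% ± 0.0809 in N1-AcSpd progenitors, 9.14% ± 0.171 in untreated HFSCs and 8.90% ± 0.232 in N1-AcSpd HFSCs. The difference between the 2 untreated cell types was thus smaller than either SD, whereas that between untreated and N1-AcSpd cells was larger than either SD in progenitors and in HFSCs. Large subunit genes held between 5.03% and 5.47% of a library and small subunit genes between 3.55% and 3.92%. The count of large over small subunit genes ran from 1.382 to 1.418 in untreated progenitors and from 1.362 to 1.399 in untreated HFSCs, which overlap. With N1-AcSpd it ran from 1.419 to 1.425 in progenitors and from 1.375 to 1.4095 in HFSCs, without overlap, and the N1-AcSpd progenitors also lay above the untreated ones. The small subunit share in N1-AcSpd organoids did not overlap either, at 3.553% to 3.626% in progenitors and 3.633% to 3.816% in HFSCs. These differences are descriptions, without a test. Rpl6l, at 0 in the N1-AcSpd HFSC libraries of mice 1 and 3, moved the mean share of that group from 8.90% to 8.87% when it was left out.

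**Figure D1:**
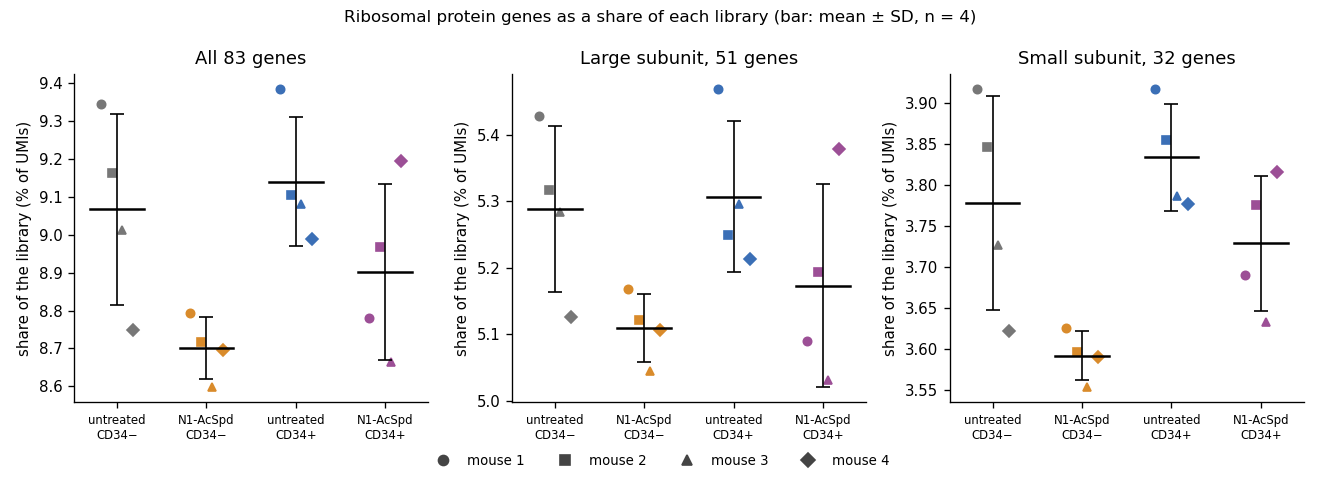
Share of each library's UMIs (vertical axis, in percent, not starting at 0) that fell on ribosomal protein genes, in all and by subunit, for the 4 groups (horizontal axis). Symbols mark the 4 mice, and bars give the mean and SD of 4 libraries. Shares of all 83 genes lay between 8.60% and 9.39%, and the 2 cell types overlapped.

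What a gene-by-gene comparison shows depends on what the libraries are scaled to. TMM, the scaling of the main test, sets libraries to the bulk of genes that are taken to be steady. Its factors were 0.945 to 0.970 in CD34− and 1.02 to 1.06 in CD34+ libraries, so the 2 cell types were shifted against each other. With TMM the median over all 19049 tested genes was 0.02 on the log2 scale in untreated cells, and with library totals it was 0.14. The median of the ribosomal protein genes minus that of all genes was -0.14 under both.

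Between untreated HFSCs and progenitors 44 of the 81 were called lower and 1, Rps27, higher. Over all genes 16.1% were called lower and 16.1% higher. The median log2 fold change was -0.12, a median change of -7.95%, with quartiles at -0.16 and -0.07. Of the large subunit genes 25 of 49 were called lower and 0 higher (median -0.11), and of the small subunit genes 19 of 32 lower and 1 higher (median -0.14). Within mice 1 to 4 the medians over all 81 genes were -0.12, -0.12, -0.13 and -0.13. The groups did not overlap and HFSCs were lower for 35 genes, against 16.2% of all genes.

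The test was edgeR's quasi-likelihood test, with Benjamini-Hochberg adjustment over all tested genes and a call at an adjusted p under 0.05. Leaving out mouse 2 brought the called genes from 45 to 21, all 21 lower. Over all genes it brought calls from 3059 higher and 3064 lower of 19049 to 2298 higher and 2412 lower of 19121.

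In N1-AcSpd organoids 34 of 81 genes were called lower in HFSCs and again Rps27 alone higher, beside 16.8% and 16.5% of all genes. Among large subunit genes 22 of 49 were called lower, and among small subunit genes 12 of 32, with medians of -0.10 and -0.10. HFSCs lay below progenitors without overlap for 42 genes, against 18.3% of all genes. Medians within mice 1 to 4 were -0.09, -0.10, -0.13 and -0.07. 30 genes were called lower in both conditions, 68.2% of those in untreated and 88.2% of those in N1-AcSpd cells. The share of all genes called lower in both is not given here, so nothing is read from this overlap. These 2 comparisons share no library, but the same 4 mice and the same fit gave both, so they are not independent. Leaving out 1 mouse (1, 2 or 3) or 1 library (N1-AcSpd CD34− of mouse 2, N1-AcSpd CD34+ of mouse 1 or 3, untreated CD34+ of mouse 3) brought the called genes from 35 to between 18 and 23. Over all genes these leave-outs called between 2589 of 18948 and 2992 of 19108 lower, and between 2411 of 18948 and 3325 of 19082 higher. With all libraries 3200 of 19049 were called lower and 3147 higher.

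Scaled to library totals, the direction was lost. In untreated cells 9 of the 81 genes were then called higher and 6 lower in HFSCs, where 25.5% of all genes were called higher and 9.23% lower. The median was -0.0048, with 0.01 for the large and -0.02 for the small subunit. In N1-AcSpd cells 11 were called higher and 4 lower (25.2% and 9.99% of all genes), and the median turned from -0.10 to 0.02. Totals of protein-coding genes alone gave as many calls in each direction in both conditions, beside 25.1% and 9.35% of all genes in untreated and 24.6% and 10.2% in N1-AcSpd cells. Size factors of DESeq2 and upper quartile scaling gave medians of -0.14 and -0.12 in untreated cells, close to TMM. These genes were thus lower in HFSCs relative to the typical gene, while their share of all UMIs overlapped between the cell types.

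**Figure D2:**
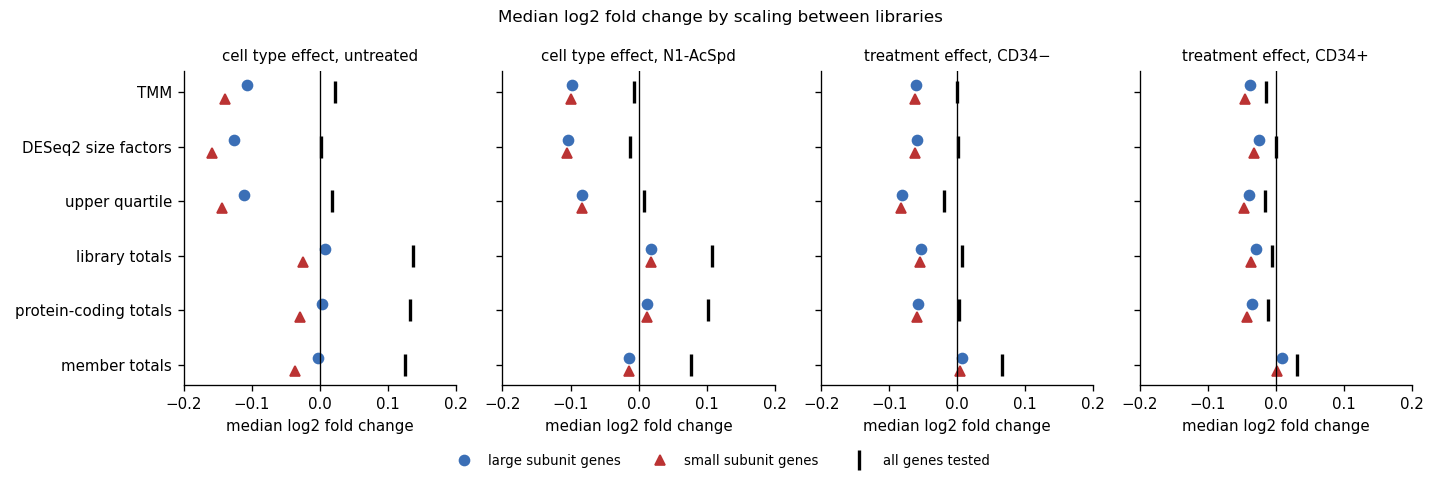
Median log2 fold change (horizontal axis) of large subunit genes (circles), small subunit genes (triangles) and all genes tested (bars) under 6 ways of scaling the libraries (vertical axis), for 4 comparisons. For cell type the median in untreated cells went from -0.12 with TMM to -0.0048 with library totals, and all genes moved with it from 0.02 to 0.14. For treatment the medians stayed below 0 under all but member totals. Member totals scale each library to the summed counts of these same genes, so medians near 0 were fixed in advance there.

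**Figure D3:**
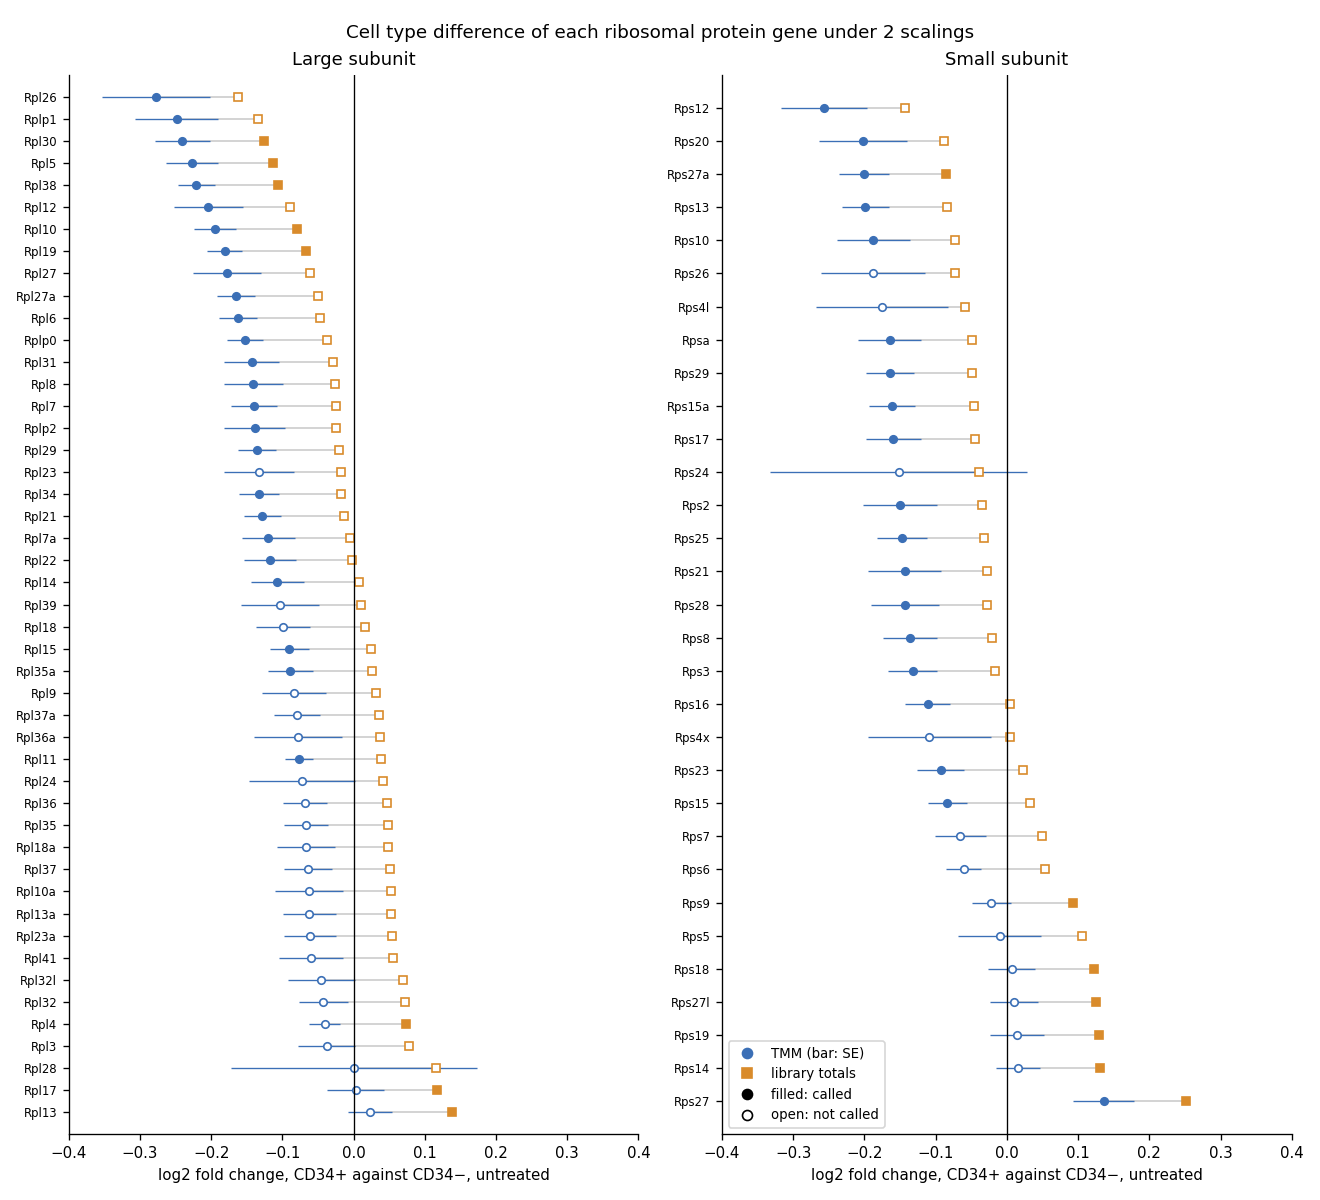
Log2 fold change of HFSCs against progenitors (horizontal axis), untreated, for 78 of the 81 tested genes (vertical axis; Rpl6l and Rpl39l lie outside the steady range and are left out, and 1 gene is not reported here), with TMM (circles, with SE) and library totals (squares). Filled symbols were called. Every gene shown moved to the right by about the same amount, and Rps27 lies farthest to the right in both.

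Rps27 encodes a small subunit protein with a zinc finger. It measured 1942, 1787, 1860 and 1741 CPM in untreated progenitors of mice 1 to 4 and 2105, 1983, 1983 and 1982 CPM in untreated HFSCs. N1-AcSpd progenitors had 1767, 1681, 1620 and 1732 CPM, and N1-AcSpd HFSCs 1845, 1790, 1854 and 2028 CPM. In both conditions every HFSC library lay above every progenitor library.

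The log2 fold changes of Rps27 were 0.14 (SE 0.0429, adjusted p = 0.0265) and 0.14 (SE 0.0429, adjusted p = 0.0183), and with library totals 0.25 and 0.26. Rps27 (ENSMUSG00000090733) lies at chr3:90212522-90213651. The near-identical retrogene Rps27rt had 0.955 to 0.958 times its counts in every library, so tags of the 2 genes cannot be told apart. Its call in untreated cells was lost, with the direction kept, when any of 5 libraries was left out (untreated CD34− of mice 2 and 4, untreated CD34+ of mice 1, 3 and 4), and without mice 2, 3 or 4. The log2 fold change then lay between 0.11 and 0.15. It was also lost with DESeq2 size factors and with no filter on low counts. The call in N1-AcSpd cells was lost without N1-AcSpd CD34− of mouse 3, N1-AcSpd CD34+ of mouse 4, or mice 2, 3 or 4, at 0.11 to 0.16.

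The stalk proteins draw elongation factors to the large subunit, and all 3 of their genes were called lower in HFSCs in both conditions. Rplp1 measured 2256, 2182, 2237 and 2053 CPM in untreated progenitors and 1948, 1797, 1907 and 1696 CPM in untreated HFSCs. In N1-AcSpd cells it measured 2043, 2023, 1930 and 1961 CPM in progenitors and 1784, 1765, 1478 and 1757 CPM in HFSCs. The cell types did not overlap in either condition. Its log2 fold changes were -0.25 (SE 0.0581, adjusted p = 0.00474) and -0.23 (SE 0.0581, adjusted p = 0.00709).

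Rplp0, the base of the stalk, went from 2492 ± 70.3 to 2242 ± 55.9 CPM (SD, n = 4) in untreated cells, a log2 fold change of -0.15 (adjusted p = 0.000415). Rplp2 changed by -0.14 (adjusted p = 0.0227) and, in N1-AcSpd cells, by -0.12 (adjusted p = 0.0412). The call of Rplp2 in N1-AcSpd cells was lost in 14 of 20 leave-outs of a library or mouse and in 6 of 13 other settings, and its call in untreated cells in 5 of 20 leave-outs. With library totals none of the 3 was called, and their log2 fold changes in untreated cells were -0.04, -0.13 and -0.02 for Rplp0, Rplp1 and Rplp2.

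Rpl5 and Rpl11 bind the 5S RNA and, when free, hold back the p53 regulator MDM2. Rpl5 measured 603, 600, 586 and 566 CPM in untreated progenitors and 518, 500, 523 and 471 CPM in untreated HFSCs. In N1-AcSpd cells it measured 572, 587, 580 and 566 CPM in progenitors and 521, 508, 481 and 479 CPM in HFSCs. No HFSC library reached the lowest progenitor library. The log2 fold changes of Rpl5 were -0.23 (SE 0.0365, adjusted p = 0.000334) and -0.21 (SE 0.0365, adjusted p = 0.000452). It was still called lower with library totals, at -0.11 and -0.10. Rpl11 had -0.08 in untreated cells (adjusted p = 0.00731), a call that was lost without mouse 2 and a value that turned to 0.04 with library totals, and it was not called in N1-AcSpd cells at -0.02 (adjusted p = 0.444). With library totals Rpl11 was called higher in N1-AcSpd cells, at 0.10 (adjusted p = 0.00274).

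4 members are known from mouse mutants with pigment or skeletal traits. Rpl38, needed for axial patterning in the mouse, measured 820, 814, 807 and 793 CPM in untreated progenitors and 702, 709, 694 and 670 CPM in untreated HFSCs. In N1-AcSpd cells it measured 756, 780, 780 and 780 CPM in progenitors and 692, 687, 642 and 679 CPM in HFSCs. Its spread within a group was small, and the cell types did not overlap.

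Rpl38 changed by -0.22 (SE 0.0258, adjusted p = 2.16e-05) and -0.20 (SE 0.0258, adjusted p = 5.02e-05). With library totals it was still called lower, at -0.11 and -0.08. Rps20 was called lower in untreated cells at -0.20 (adjusted p = 0.0223), a call lost in 7 of 20 leave-outs and with library totals. It was not called in N1-AcSpd cells at -0.16 (adjusted p = 0.063). Rps19 had 0.01 and 0.03 (adjusted p = 0.841 and 0.619), and 0.13 and 0.15 with library totals, both called. Rpl24, mutated in belly spot and tail mice, had -0.07 in untreated cells (adjusted p = 0.535; 0.04 with library totals) and was called lower in N1-AcSpd cells at -0.22 (adjusted p = 0.0342; -0.10 and not called with library totals), a call lost in 9 of 20 leave-outs. Its counts were near-identical to those of Gm28037, a gene model that overlaps it.

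Other genes with the largest decreases were of both subunits. Rpl30, a large subunit protein, had 831, 821, 816 and 836 CPM in untreated progenitors and 730, 697, 706 and 664 CPM in untreated HFSCs, without overlap. Its log2 fold change was -0.24 (SE 0.0384, adjusted p = 0.000312). Rps12, of the small subunit, had 959, 944, 961 and 883 CPM in untreated progenitors and 816, 776, 831 and 713 CPM in untreated HFSCs. Its log2 fold changes were -0.26 (adjusted p = 0.00516) and, in N1-AcSpd cells, -0.23 (adjusted p = 0.00903). Both calls were lost with library totals, totals of protein-coding genes or pseudogene counts added, and without mouse 2.

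Rps27a encodes a fusion of ubiquitin with a small subunit protein and so also feeds the ubiquitin pool. It changed by -0.20 (adjusted p = 0.000599) and -0.19 (adjusted p = 0.000911). The call in N1-AcSpd cells was lost with library totals and with totals of protein-coding genes. Rpl10, on the X chromosome, whose protein is among the last to join the large subunit, changed by -0.19 (adjusted p = 0.000208) and -0.22 (adjusted p = 7.12e-05). Rps6, the target of the S6 kinases, was not called, at -0.06 in both conditions (adjusted p = 0.0738 and 0.0853), and had 0.05 and 0.06 with library totals. Rpl5, Rpl38 and Rpl10 were called lower in both conditions also when scaled to library totals, to totals of protein-coding genes or to totals of the ribosomal protein genes.

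Rpl26 had the largest called decrease in untreated cells, -0.28 (adjusted p = 0.0124), and this value rested on 1 library. Untreated progenitors of mice 1 to 3 had 1236, 1183 and 1213 CPM, and that of mouse 4 had 1622 CPM. Untreated HFSCs had 1116, 1091, 1088 and 1041 CPM. Leaving out that 1 progenitor library gave -0.16, still called. The call was lost in 4 of 13 other settings. These were totals of the library, of protein-coding genes or of the ribosomal protein genes, and a fit of only the compared groups. The decreases of Rps26, -0.22 (adjusted p = 0.0336), and of Rps4l, -0.29 (adjusted p = 0.0283), were called in N1-AcSpd cells, with groups that overlapped. These calls were lost in 8 and 7 of 20 leave-outs and, for both genes, with library totals. In untreated cells the same genes had -0.19 (adjusted p = 0.0659) and -0.17 (adjusted p = 0.179), and edgeR did not call the difference between conditions.

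**Figure D4:**
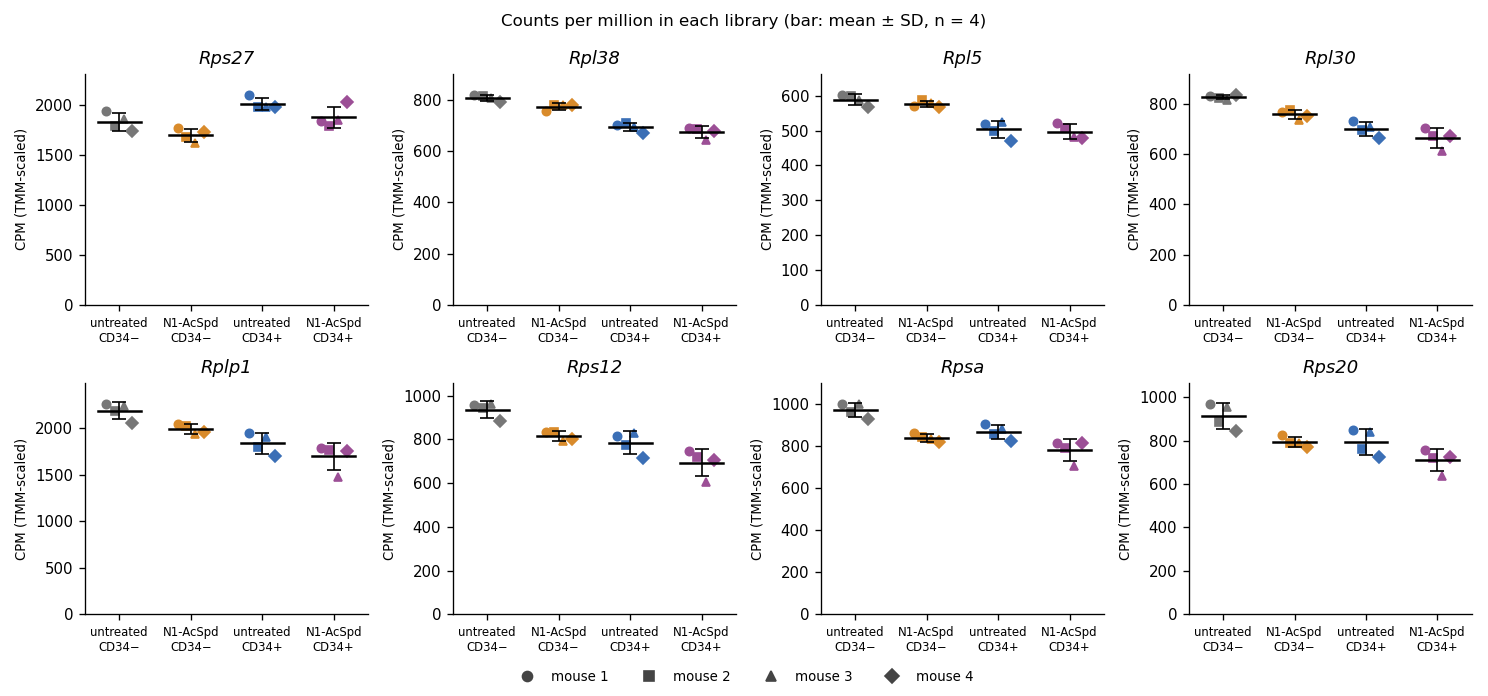
CPM after TMM scaling (vertical axes, from 0) of 8 genes in the 16 libraries by group (horizontal axes), with symbols for mice and bars for mean and SD of 4 libraries. Rps27 was called higher in HFSCs in both conditions, and Rpl38, Rpl5, Rpl30, Rplp1 and Rps12 lower. Rpsa, Rps20 and Rps12 were called lower with N1-AcSpd averaged over cell types.

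Among the paralogs examined, Rpl3l, Rpl10l and Rpl39l were scarce, whereas Rps27l was not. Rpl3l, the muscle form of Rpl3, had 3 UMIs in all, 3 in CD34− and 0 in the 8 CD34+ libraries, where 3 counts of the 145779303 UMIs would allow 0.0206 CPM on library totals. Rpl10l, which stands in for Rpl10 in the male germ line, had 45 UMIs in all and at most 6 in a library. Rpl39l had 164 UMIs and at most 31 in a library, against 1120 ± 57.5 CPM (SD, n = 4) of Rpl39 in untreated progenitors. Rps27l, a target of p53, was well counted at 206 ± 5.09 CPM in untreated progenitors and 208 ± 3.50 CPM in untreated HFSCs, and was not called (0.01 and -0.03, adjusted p = 0.881 and 0.661). Rpl3 had -0.04 and 0.01 (adjusted p = 0.547 and 0.917), and Rpl39 -0.10 and -0.05 (adjusted p = 0.176 and 0.565). Rps4x, the X-linked main copy of Rps4l, had -0.11 and -0.10 (adjusted p = 0.399 and 0.445). With library totals the values of Rpl3, Rpl39 and Rps4x lay above 0 in both conditions, between 0.0047 and 0.13, and that of Rps27l was 0.13 in untreated cells, which was called, and 0.09 in N1-AcSpd cells.

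With N1-AcSpd the median differences were smaller. No ribosomal protein gene was called in progenitors or in HFSCs taken alone, where edgeR called 0.241% of all genes lower and 0.373% higher in progenitors, and 0.136% and 0.189% in HFSCs. At an unadjusted p under 0.05 there were 27 of 81 genes in progenitors, 26 of them lower, against 13.6% of all genes, and 11 in HFSCs, all 11 lower, against 13.2%. DESeq2 called 8 lower in progenitors, beside 1.24% of all genes, and 0 in HFSCs, beside 0.552%. Untreated and treated libraries did not overlap, with the treated lower, for 13 genes in progenitors (4.13% of all genes) and 2 in HFSCs (3.44%). The medians were -0.06 in progenitors and -0.04 in HFSCs, with large and small subunit at -0.06 and -0.06 in the former and -0.04 and -0.05 in the latter. These directions were kept with library totals, at -0.05 and -0.03. Within mice 1, 2 and 3 the medians were -0.09, -0.06 and -0.11 in progenitors and -0.06, -0.04 and -0.11 in HFSCs. Mouse 4 had 0.0038 and 0.06, so the median was below 0 in 3 of 4 mice.

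In progenitors genes below 0 with small p-values included Rpsa at -0.21 (adjusted p = 0.0508) and Rpl34 at -0.10 (adjusted p = 0.119). With mouse as a block 2 genes, Rpsa among them, were called lower, beside 0.782% of all genes, and with library totals Rpsa, beside 0.189%. The genes above 0 with the smallest p were Rpl24 at 0.17 (adjusted p = 0.326), Rps4l at 0.16 (adjusted p = 0.498) and Rpl4 at 0.04 (adjusted p = 0.458). In HFSCs they were Rpsa at -0.15, Rplp0 at -0.09 and Rpl35a at -0.10 below 0, with adjusted p of at least 0.179, and Rpl4 at 0.02, Rpl7a at 0.03 and Rpl11 at 0.02 above 0, with adjusted p of at least 0.748.

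Averaged over both cell types, 8 genes were called lower with N1-AcSpd and 0 higher, beside 2.17% and 2.7% of all genes. At an unadjusted p under 0.05 there were 35, all 35 lower, against 20.8% of all genes. The 8 called genes were 3 large subunit genes, Rplp0, Rpl34 and Rpl37, and 5 small subunit genes, among them Rpsa, Rps12, Rps20 and Rps23. Rpsa, which is also known as the laminin receptor, had 997.2, 959, 996 and 926 CPM in untreated progenitors and 859, 842, 831 and 818 CPM in N1-AcSpd progenitors. In HFSCs it had 904, 857, 878 and 822 CPM untreated and 813, 791, 703 and 811 CPM with N1-AcSpd. The groups did not overlap in either cell type. Its mean log2 fold change was -0.18 (SE 0.0313, adjusted p = 0.00712), and -0.17 with library totals (adjusted p = 0.00567), where 9 genes were called lower beside 1.98% of all genes. The call of Rpsa was lost with pseudogene counts added (adjusted p = 0.159) and without mouse 1 or mouse 2. Between cell types Rpsa was called lower in untreated HFSCs at -0.16 (adjusted p = 0.0111). That call was lost with totals of the library, of protein-coding genes or of the ribosomal protein genes, and without mouse 2. In N1-AcSpd HFSCs Rpsa was not called at -0.10 (adjusted p = 0.0916), which turned to 0.01 with library totals.

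Rps20, an element of the small subunit head, had 968, 886, 953 and 844 CPM in untreated and 824, 790, 789 and 769 CPM in N1-AcSpd progenitors. In HFSCs it had 847, 763, 838 and 724 CPM untreated and 757, 721, 637 and 725 CPM with N1-AcSpd. Progenitor groups did not overlap, whereas HFSC groups did. The mean change was -0.18 (SE 0.0438, adjusted p = 0.0325), a call lost in 12 of 20 leave-outs. Rps12 changed by -0.19 (adjusted p = 0.026), a call lost in 8 of 20 leave-outs and with pseudogene counts added (adjusted p = 0.990), and the remaining called genes by between -0.11 and -0.08.

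In mice 1 to 4 the median over all 81 genes of this mean effect was -0.07, -0.06, -0.11 and 0.03, and the median of the effects was -0.05 for both the large and the small subunit. Of the 8 called genes, 5 were lower in all 4 mice and Rplp0, Rpl34 and Rps23 in 3. With mouse as a block, 15 genes were called lower, beside 3.64% of all genes. Without mouse 1 or mouse 2 no ribosomal protein gene was called, and without mouse 3 there was 1, lower. Calls over all genes fell too, from 414 of 19049 lower to 69 of 18948, 83 of 19121 and 77 of 19067. Those higher fell from 514 to 106, 98 and 139. Leaving out 1 library gave between 1 (untreated CD34+ of mouse 1) and 15 (untreated CD34− of mouse 4), with 2 without N1-AcSpd CD34− of mouse 3. All of these were lower, and over all genes 233 of 19086, 376 of 19034 and 264 of 18997 were then called lower. The interaction, the difference of the cell type effects between conditions, was called for 0 of the 81 genes and for 0.0% of all genes by edgeR. In it 0 ribosomal protein genes had an unadjusted p under 0.05, against 4.19% of all genes, and DESeq2 called 0, beside 0.191% of all genes called lower. The genes named for the interaction had the smallest p-values in their direction, but none of these was small, so nothing is read from them. Above 0 they included Rpl11 at 0.05 (SE 0.0272) and Rps24 at 0.37 (SE 0.255). Below 0 they were Rpl24 at -0.15 (SE 0.106), Rpl35a at -0.05 (SE 0.0444) and Rps4l at -0.11 (SE 0.131).

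Some genes varied between libraries of 1 group more than between groups. The median coefficient of variation was 2.08% to 3.92% across the 4 groups, and 9 of 81 genes reached 10% in some group. Rps24, whose last exons are spliced in alternative ways, had 1722, 2182, 1464 and 1355 CPM in untreated progenitors and 1664, 2304, 1254 and 1251 CPM in N1-AcSpd HFSCs. Mouse 2 was highest in 3 groups and not in N1-AcSpd progenitors. Rpl28 ran from 299 to 522 CPM over all libraries with overlap of all groups. Neither was called in any comparison. Rpl6l had 9428 to 17944 counts in 14 libraries and 0 in the N1-AcSpd HFSC libraries of mice 1 and 3, where 3 counts would allow 0.114 and 0.194 CPM on library totals. Its log2 fold change is not given.

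**Figure D5:**
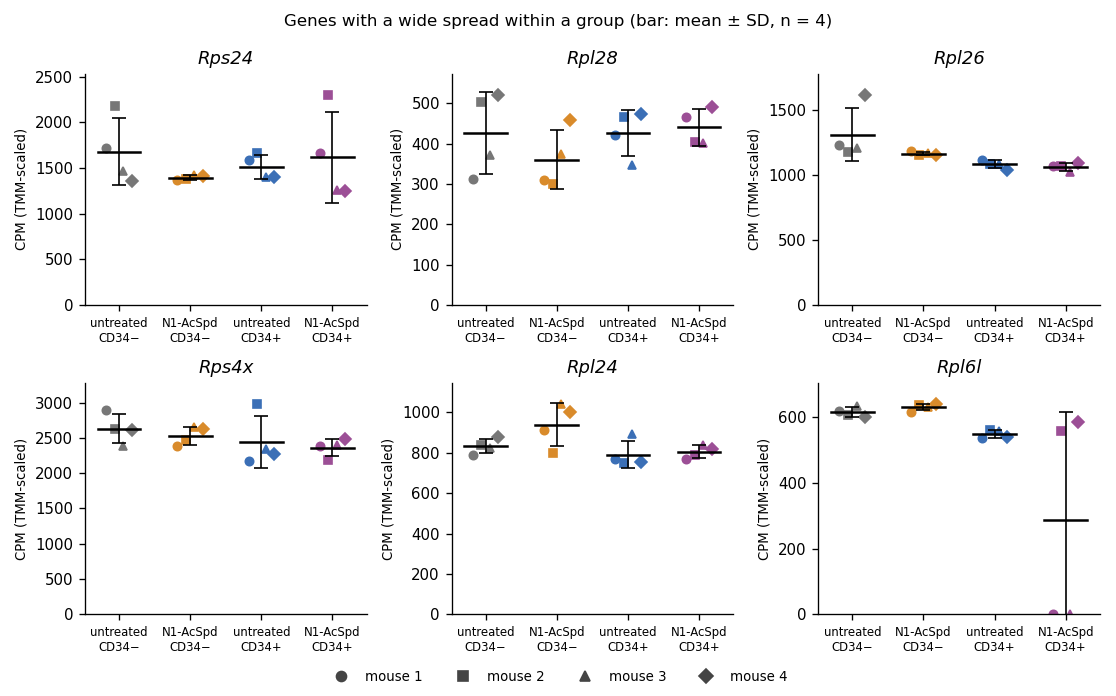
CPM after TMM scaling (vertical axes, from 0) of 6 genes with a wide spread within a group, in the 16 libraries by group (horizontal axes), with symbols for mice and bars for mean and SD of 4 libraries. Rpl26 was high in 1 library (1622 CPM), Rps24 in mouse 2 of 3 groups, and Rpl6l was at 0 in 2 libraries.

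How tags are shared with pseudogenes bears on all of these values. The table holds 282 pseudogenes named after 60 of the genes, with 5.51% to 6.13% of each library's UMIs on them. For 25 genes the largest such pseudogene had at least 50% of the gene's own count, among them Rps12 (96.8%), Rps6 (85.1%), Rpl38 (75.8%) and Rpl10 (112%). 57 of the pseudogenes were at 0 in some library and at 100 counts or more in another. In untreated cells the 60 genes with a named pseudogene had a median of -0.12, with 36 called lower, and the 21 without one -0.08, with 8 called lower. With the counts of the pseudogenes added, 35 genes were called lower and 2 higher in untreated cells, beside 16.1% of all genes called lower, and the calls of Rps12, Rpl30 and Rpl10 were lost there. In N1-AcSpd cells those of Rps12 and Rpl10 were lost, and for mean treatment those of Rpsa, Rps12 and Rps23. In 5 cases, among them Rpl24, Rpl35, Rpl35a and Rps4l, an overlapping gene had counts within 5% of the gene's own in every library.

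Genes that share function or control with the ribosomal proteins were counted from lists, to be read against the shares of all genes called lower and higher in HFSCs, 16.1% and 16.1% in untreated and 16.8% and 16.5% in N1-AcSpd cells. Of 6 ribosomal proteins outside the symbol rule, 3 were called lower in HFSCs in both conditions: Rpl36al at -0.23 and -0.17, Fau at -0.16 and -0.13, and Rps3a1 at -0.10 and -0.10. Rps27rt was called higher at 0.14 and 0.14, and shares its tags with Rps27. Of 15 other mRNAs with a TOP tract, 7 were called lower in both conditions and 0 higher, with medians of -0.12 and -0.10. They were the elongation factor genes Eef1d (-0.29 and -0.27), Eef1b2 (-0.18 and -0.16) and Eef1g (-0.16 and -0.19), Npm1 of ribosome assembly (-0.21 and -0.27), Pabpc1, which binds poly(A) tails (-0.25 and -0.23), Rack1 of the small subunit (-0.23 and -0.23) and Tpt1 (-0.18 and -0.17). With library totals Eef1d (-0.17), Npm1 (-0.10), Pabpc1 (-0.14) and Rack1 (-0.11) were still called lower in untreated cells. With N1-AcSpd, averaged over cell types, Eef1b2 (-0.19) and Pabpc1 (-0.14) were called lower, beside 2.17% of all genes.

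Of 11 regulators of TOP mRNAs, 2 were called higher and 2 lower in untreated HFSCs, shares near those of all genes (16.1% in each direction), so nothing is read from the list. Those higher were Tsc1 (0.56) and Tsc2 (0.30), which hold mTOR complex 1 in check. Those lower were Larp1 (-0.22), which binds TOP tracts, and the S6 kinase gene Rps6kb2 (-0.44). In N1-AcSpd HFSCs Rps6kb1 (0.20) and the mTOR subunit gene Mlst8 (0.37) were called higher and Rps6kb2 (-0.47) lower. Tsc2 was called lower with N1-AcSpd averaged over cell types (-0.23), beside 2.17% of all genes. Of 6 chaperones that guard single ribosomal proteins, Grwd1 (-0.29 and -0.23), which carries Rpl3, and Heatr3 (-0.28 and -0.30), which serves Rpl5, were called lower in HFSCs in both conditions. In N1-AcSpd HFSCs Ltv1 was called lower (-0.25) and Tsr2, which carries Rps26, higher (0.29). edgeR called no gene of the 4 lists for treatment within a cell type. DESeq2 called 1 lower in progenitors and 1 higher in HFSCs, beside 233 and 319 of all 18830 genes in those directions. The mouse block called 1 lower in progenitors, beside 149 of all 19049 genes.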

How the data were processed

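Counts of UMIs per gene were available for 16 libraries of 3′ RNA-seq. Per the study's methods and the submitters' processing notes, the authors split reads with FLEXBAR, placed the second read on mm10 with Kallisto (kallisto 0.45.0), assigned tags with BEDTools and counted unique UMIs in R; FastQC 0.11.7 and DESeq2 are also named. The deposited values are raw counts without normalization. Empty cells were read as 0, and no column belonged to another sample. Symbols and positions came from GENCODE M21 on GRCm38. The 94 identifiers without a symbol held 0.125% of counts.

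Groups and mouse numbers came from the labels. Genes averaging 5 counts or more per library entered edgeR 4.0.16 (R 4.3.3), whose quasi-likelihood test was run in 1 fit of all libraries with TMM scaling, and called at a Benjamini-Hochberg adjusted p under 0.05. Tests are two-sided. SE is the log2 fold change over the square root of F. Comparisons were CD34+ against CD34− in each condition, N1-AcSpd against untreated in each cell type, the mean of the latter, and the interaction. Medians over the genes are descriptions without a test. CPM are counts scaled to 1000000 of TMM-adjusted totals. No dose of N1-AcSpd was taken from the labels. The procedure was tested on simulated data.

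In each comparison the 6 largest called increases and decreases were named, or the 3 smallest p where a direction had no call, along with genes chosen for their role and called genes of related lists. Members and lists were chosen with earlier results of these data known. Rpl34, Rpl35, Rpl6l, Rpl28 and the other genes given for their spread or sharing of tags, and those listed for library totals, were named after their values were seen. Replicate numbers stand for 1 animal in all groups, which pairs the libraries; over 24 same-mouse pairs, deviations from the group means correlated at 0.013 on average (-0.069 to 0.086). Alternatives were other scalings, filters, a mouse block, only the compared groups, thinning, DESeq2 1.42.0, pseudogene counts added, other member sets, and leaving out each library and mouse. Scaling to protein-coding or member totals, leaving out the 3 annotated pseudogenes, and all alternatives for related lists were chosen after seeing the data. Results of 1 gene are not reported here by name; it is counted in the totals.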

Additional observations from a re-analysis of the deposited data

Results flagged for a closer look

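In 12 of 132 groups of 4 libraries examined (32 genes and the share of all ribosomal protein genes), 1 library lay far from the other 3 by Dixon's test. Chance gives this in about 1 in 20 groups. CPM of the far library are given with the range of the others.

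In untreated CD34− cells of mouse 4, Rpl26 had 1622 (others 1183 to 1236) and Rpl10 had 1228 (1301 to 1308). In N1-AcSpd CD34− cells Rpl10 had 1265 in mouse 3 (1307 to 1314), Rps26 had 1100.0 in mouse 3 (869 to 903), Rpl38 had 756 in mouse 1 (780 to 780) and the scarce Rpl39l had 1.1005 in mouse 2 (0.330 to 0.451). In untreated CD34+ cells Rps27 had 2105 in mouse 1 (1982 to 1983) and Rpl24 had 891 in mouse 3 (749 to 768).

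In N1-AcSpd CD34+ cells the library of mouse 3 was low for Rplp1 at 1478 (1757 to 1784) and for Rpl7a at 535 (598 to 603). In the same group Rps26 had 899 in mouse 2 (773 to 789) and Rplp0 had 2191 in mouse 4 (2077 to 2095). The library of mouse 3 in this group is also the smallest, with 15480075 UMIs. The part of depth in these values was not tested. edgeR and DESeq2 each called the interaction of cell type and treatment for 0 of the 81 ribosomal protein genes tested, and 0 had an unadjusted p under 0.05 in edgeR. Over all genes edgeR called 0 and DESeq2 36 lower and 36 higher.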

How the results depend on the processing

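Values are counts of called genes, log2 fold changes or shares in percent, and the cause of each change was not tested. Cell type, untreated (45 called): library totals 15, protein-coding totals 15 and totals of the ribosomal protein genes (member totals) 24. Of these, 9 were higher under each, and 6, 6 and 15 lower. Member totals called 4463 of all 19049 genes higher and 1792 lower. The median there was -0.0048, -0.0095 and -0.017, and -0.14 with DESeq2 size factors, -0.14 with DESeq2 and -0.13 with no filter. Cell type, N1-AcSpd (35 called): 15, 15 and, with no filter or only the compared groups, 22 and 22, with medians of 0.018, 0.012 and, for member totals, -0.014. Treatment in progenitors (0 called): 1 lower with library totals, upper quartile, filterByExpr or protein-coding totals, and 8 lower with DESeq2. Member totals gave 5, of which 4 were higher and 1 lower, beside 217 and 25 of all 19049 genes. Mean treatment (8 called, all lower): 2 with no filter, 4 with pseudogene counts and 17 with DESeq2, again all lower. Over all genes these called 203 of 32989, 392 of 18798 and 597 of 18830 lower. Member totals gave 13, of which 9 were higher and 4 lower, beside 1519 and 236 of all 19049 genes. Member totals turned the treatment medians to 0.0068 (progenitors), 0.0048 (HFSCs) and 0.0057 (mean), and the interaction to -0.0047. Member totals are the summed counts of these same genes, so medians near 0 were fixed in advance. Nothing is read from the signs of these medians.

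With mouse as a replicate block, calls went to 2 for treatment in progenitors, 15 for mean treatment, and 1 and 9 for the related lists in those comparisons. Over all 19049 genes the block called 202 higher and 149 lower in the former and 857 higher and 694 lower in the latter comparison. No other count moved by over 1.5 times.

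Cell type effects of single genes turned above 0 with library, protein-coding and member totals. In untreated cells these were Rpl11 (0.038, 0.034, 0.026), Rps6 (0.054, 0.049, 0.042), Rpl24 (0.042, 0.037, 0.029), Rpl3 (0.078, 0.073, 0.066), Rpl39 (0.010, 0.0056 for the former 2) and Rps4x (0.0047 for library totals alone). In N1-AcSpd cells these were Rpl11 (0.095, 0.089, 0.063), Rps6 (0.059, 0.053, 0.027), Rpsa (0.013, 0.0073 for the former 2), Rpl39 (0.068, 0.061, 0.035), Rps4x (0.018, 0.012 for the former 2) and Rps27l (0.092, 0.086, 0.059). With DESeq2 size factors and DESeq2 itself, Rps19 (-0.0059, -0.0060) and Rps27l (-0.0099, -0.010) lay below 0 in untreated cells.

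Related lists, of 6, 15, 11 and 6 genes, gave 11 with member totals for cell type in N1-AcSpd cells. Of these, 5 were higher and 6 lower, beside 4104 and 2085 of all 19049 genes. For treatment in progenitors there was 1 higher with member totals and 1 lower with DESeq2, and in HFSCs 1 higher with DESeq2. Over all genes these called 217 of 19049 higher, 233 of 18830 lower and 319 of 18830 higher. For mean treatment there were 6 with library totals (2 higher, 4 lower), 1 lower with no filter and 1 lower when thinned. Over all genes these called 663 higher and 378 lower of 19049, 203 lower of 32989 and 309 lower of 18199. Member totals gave 6 there (5 higher, 1 lower), beside 1519 higher and 236 lower of all 19049 genes. DESeq2 gave 13 (4 higher, 9 lower), beside 988 higher and 597 lower of all 18830 genes. Shares (untreated and N1-AcSpd progenitors, then HFSCs) were 15.02%, 14.5%, 15.004% and 14.8% with pseudogene counts, 9.62%, 9.22%, 9.73% and 9.46% with ribosomal proteins outside the rule, and 13.6%, 13.03%, 13.7% and 13.3% of protein-coding counts. Without mitochondrial genes the share in N1-AcSpd progenitors was 8.79%.

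Leaving out libraries or mice gave 21 to 48 calls for cell type in untreated and 18 to 41 in N1-AcSpd cells, 0 to 2 for treatment in progenitors and 0 to 15 for mean treatment. The leave-out of mouse 2 gave the 21 and the 18. Over all 19121 genes it called 2298 higher and 2412 lower in untreated cells. In N1-AcSpd cells it called 2413 higher and 2610 lower, and for mean treatment 98 higher and 83 lower. Medians ran from -0.15 to -0.11, -0.11 to -0.07, -0.08 to -0.04, -0.08 to -0.0092 (HFSCs) and -0.08 to -0.03, and the interaction from -0.00062 to 0.049. Effects that changed sign were those of Rps19 (-0.0068 to 0.045 in untreated and -0.0067 to 0.062 in N1-AcSpd cells), Rps27l (-0.0061 to 0.033 and -0.050 to 0.0079) and Rpl3 (-0.015 to 0.037 in N1-AcSpd cells). Calls in the related lists ran from 8 to 18, 9 to 18 and, for mean treatment, 0 to 5. Of the named calls, those of Rpl5 and Rpl38 in both conditions and of Rps27a in untreated cells were lost under none of the 13 settings and 20 leave-outs. The smallest library held 15480075 UMIs.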
